A study of Mus musculus with 6 samples.

Results

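A set of 10 genes of the PIWI-interacting RNA (piRNA) pathway and the germ plasm was followed in germline stem (GS) cells, which are cultured mouse spermatogonia. They were taken by symbol from the deposited count table, and all 10 were found among its 32285 genes: Piwil2, Piwil4, Piwil1, Mov10l1, Ddx4, Tdrd9, Tdrd1, Mael, Asz1 and Dazl. The cells came from DBA/2 mouse pups with the genotype DBA/Tg14(act-EGFP-OsbY01), a transgene in which an actin promoter drives EGFP, and were grown on mouse embryonic fibroblast feeders. Both groups were frozen for 6 months and shared strain, genotype and cryopreservation. The 3 Space libraries came from cells kept in a freezer on the International Space Station (ISS), and the 3 Ground libraries from cells kept in the same type of freezer on Earth. RNA was taken the day after thawing, without passage. Groups follow the sample titles. The treatment label says the opposite in all 6 libraries, so the sign of each difference between groups depends on the titles. The study describes separate lines in each group, while the labels do not tie a library to a line or culture, so p-values measure only the spread between these libraries.

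piRNAs are small RNAs of the germ line that bind PIWI proteins and guide them to transposon transcripts, which are cleaved in the cytoplasm or silenced at their genomic copies by DNA methylation. The long precursors are fed into the machinery by the helicase MOV10L1 and cut at the mitochondrial surface, where ASZ1 is anchored. The cleavage products are then passed between PIWI proteins in the nuage, a perinuclear granule of germ cells that holds the helicase DDX4, TDRD1, TDRD9 and MAEL. In the mouse testis PIWIL2 acts in fetal and postnatal germ cells, PIWIL4 in fetal gonocytes, where it directs methylation, and PIWIL1 in spermatocytes and round spermatids.

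The upstream sequences of 5 of the genes are shown because their transcripts stood at different levels and varied differently among the libraries described below. They were chosen after the values were seen. Each is the 250 bases before the RefSeq transcription start on GRCm38.p6, written from 5′ to 3′ on the strand of the gene. Capitals mark CACGTG, the E-box hexamer bound by MYC and MAX family factors, and GCGGGA, a core of E2F sites.
Piwil4 (chr9:14740673-14740922, minus strand): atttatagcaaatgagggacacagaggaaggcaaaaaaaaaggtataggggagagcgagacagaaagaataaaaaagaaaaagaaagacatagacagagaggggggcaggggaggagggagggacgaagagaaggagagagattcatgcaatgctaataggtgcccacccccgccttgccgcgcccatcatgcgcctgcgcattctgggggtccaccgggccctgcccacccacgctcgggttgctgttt
Tdrd9 (chr12:111971309-111971558, plus strand): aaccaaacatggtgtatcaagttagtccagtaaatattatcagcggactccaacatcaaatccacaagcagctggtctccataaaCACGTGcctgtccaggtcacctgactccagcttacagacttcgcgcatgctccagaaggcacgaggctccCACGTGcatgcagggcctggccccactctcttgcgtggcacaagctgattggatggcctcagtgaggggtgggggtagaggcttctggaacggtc
Piwil1 (chr5:128735996-128736245, plus strand): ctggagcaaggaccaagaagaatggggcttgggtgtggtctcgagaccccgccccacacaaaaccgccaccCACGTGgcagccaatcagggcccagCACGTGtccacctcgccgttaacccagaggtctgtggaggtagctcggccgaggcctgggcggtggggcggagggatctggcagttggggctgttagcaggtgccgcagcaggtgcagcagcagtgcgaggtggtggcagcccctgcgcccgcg
Dazl (chr17:50293621-50293870, minus strand): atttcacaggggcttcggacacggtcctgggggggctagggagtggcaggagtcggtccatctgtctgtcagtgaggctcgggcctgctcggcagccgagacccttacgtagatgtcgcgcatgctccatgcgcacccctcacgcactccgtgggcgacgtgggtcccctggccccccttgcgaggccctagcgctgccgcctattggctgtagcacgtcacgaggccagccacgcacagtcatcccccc
Ddx4 (chr13:112652311-112652560, minus strand): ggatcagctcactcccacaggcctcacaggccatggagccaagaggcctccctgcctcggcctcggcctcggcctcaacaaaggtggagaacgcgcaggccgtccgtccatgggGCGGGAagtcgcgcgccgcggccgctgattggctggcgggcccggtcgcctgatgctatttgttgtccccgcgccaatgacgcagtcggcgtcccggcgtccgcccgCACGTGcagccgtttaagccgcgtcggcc

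RefSeq entries were found for 9 of the 10 genes, with 12 starts in all, and Piwil2 had none. Upstream here means before the RefSeq start, not before the GENCODE gene. The RefSeq starts of Piwil1, Ddx4, Dazl, Mael and Mov10l1 lie inside the GENCODE gene, downstream of its first annotated base. So do those of Piwil4 and some of Tdrd1. The Piwil1 window ends at 128736245, in a gene that begins at 128702524. All motif matches of Piwil1 and Ddx4 thus lie within the annotated gene. CACGTG, which reads the same on both strands, was found upstream of 6 of the 9 genes and at 7 of the 12 starts. The share over all 32841 upstream windows of that length was 6.02%. It was found 2 times each upstream of Piwil1 and Tdrd9 and 1 time each upstream of Ddx4, Mael, Mov10l1 and Tdrd1, where 2 of 3 starts share the same match. The match nearest to its start was that of Tdrd1, with its first base at -11, followed by Ddx4 at -29, counting the first base before the start as -1. It was not in the windows of Piwil4, Dazl or Asz1. GCGGGA, searched on both strands, was in the windows of Ddx4 and Mael, against 16.9% of all windows. CCGGAAG, a core of ETS sites such as ETV5 binds, was searched on both strands and was in none of the 12 windows, against 6.91% of all windows. The motifs do not overlap one another. CpG content varied widely, from 31 CpG upstream of Ddx4 and 20 upstream of Dazl to 10 at the Piwil4 start shown, 8 for Tdrd9 and 0 at the other Piwil4 start, and the median over all windows was 6. Its part in the motif counts was not tested.

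Depth was even, with 19015985 to 24110916 counts per library, and mitochondrial transcripts took 2.51 to 11.5% of them. Levels are counts per 1000000 (CPM), with library totals adjusted by TMM, a trimmed mean of the log ratios between libraries. Most markers of undifferentiated spermatogonia were high: Zbtb16 had 311.6 to 374.9 CPM, Gfra1 100.4 to 148.6 and Uchl1, the highest of its list, 615.7 to 710.7. Lower were Id4 (23.3 to 27.8), Cdh1 (7.04 to 10.9) and Nanos2, the lowest by mean (4.78 to 12.1). The differentiation markers Kit (52.5 to 70.9 CPM) and Stra8 (88.0 to 104.0) lay between Dmrtb1 (24.9 to 39.95) and Ccnd2 (444.6 to 753.1). Of the spermatocyte and spermatid list, Tex101 (215.5 to 245.3 CPM) and Sycp1 (126.5 to 134.8) were well detected, Spo11 had 3.13 to 6.92 CPM, and the protamine gene Prm2, the lowest, had 0 counts in each library. The summed level of 21 feeder fibroblast markers was 1135 to 1149 CPM in Ground and 894.6 to 1160 in Space, with Fn1 the highest (376.1 to 464.5), Lum the lowest (0.453 to 1.76), Col1a1 at 95.3 to 126.7 and Vim at 33.3 to 98.3. The lists of Sertoli and Leydig cell markers (8 genes, 29.4 to 32.2 CPM in sum, from Hsd3b1 with 0 counts in each library to Wt1 at 16.1 to 19.7) and of macrophage markers (6 genes, 14.1 to 22.6 CPM in sum, from Adgre1 with 1 count in 1 library to Cd68 at 14.0 to 21.98) were low. Between groups no gene of these lists was called. Of the 21 feeder markers, 20 had a log2 fold change below 0 (median -0.31, 4 with an unadjusted edgeR p under 0.05). All 8 tested spermatocyte and spermatid markers were also below 0 (median -0.13). Over all 15104 genes tested, 7743 were below 0 and 0.609% had such a p. Genes of a list come from the same libraries, so these counts do not stand for separate replicates. The medians were 0.0040 for 12 undifferentiated and 0.034 for 7 differentiating spermatogonial markers. Their part in the values of the 10 genes was not tested.

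The 10 genes were expressed at very different levels. All 10 passed the filter on low counts, and together they took 0.311 to 0.314% of the counts in each library. Genes were compared with each other as CPM per kb of annotated exon, averaged over 6 libraries. Dazl, an RNA-binding regulator of translation needed for germ cell development, was highest at 228.5 CPM per kb. It was followed by Mael at 163.0, Ddx4 at 133.1, Mov10l1 at 122.1 and Piwil2 at 104.3, which put these 5 genes at the 98.0 to 99.4 percentile of the tested genes. Tdrd1 had 47.3, Asz1 28.4 and Tdrd9 21.8 CPM per kb. Piwil4 (5.28) and Piwil1 (3.90) were lowest, at the 50.2 and 44.2 percentile of the tested genes. The ranges over libraries overlapped for the neighbours Ddx4 and Mov10l1 and for Piwil4 and Piwil1, and those of all other neighbours were apart. Within libraries the ratio of Ddx4 to Mov10l1 per kb was 0.976 to 1.162, so that their order changed between libraries, whereas Piwil4 was above Piwil1 in each of the 6.

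**Figure D1:**
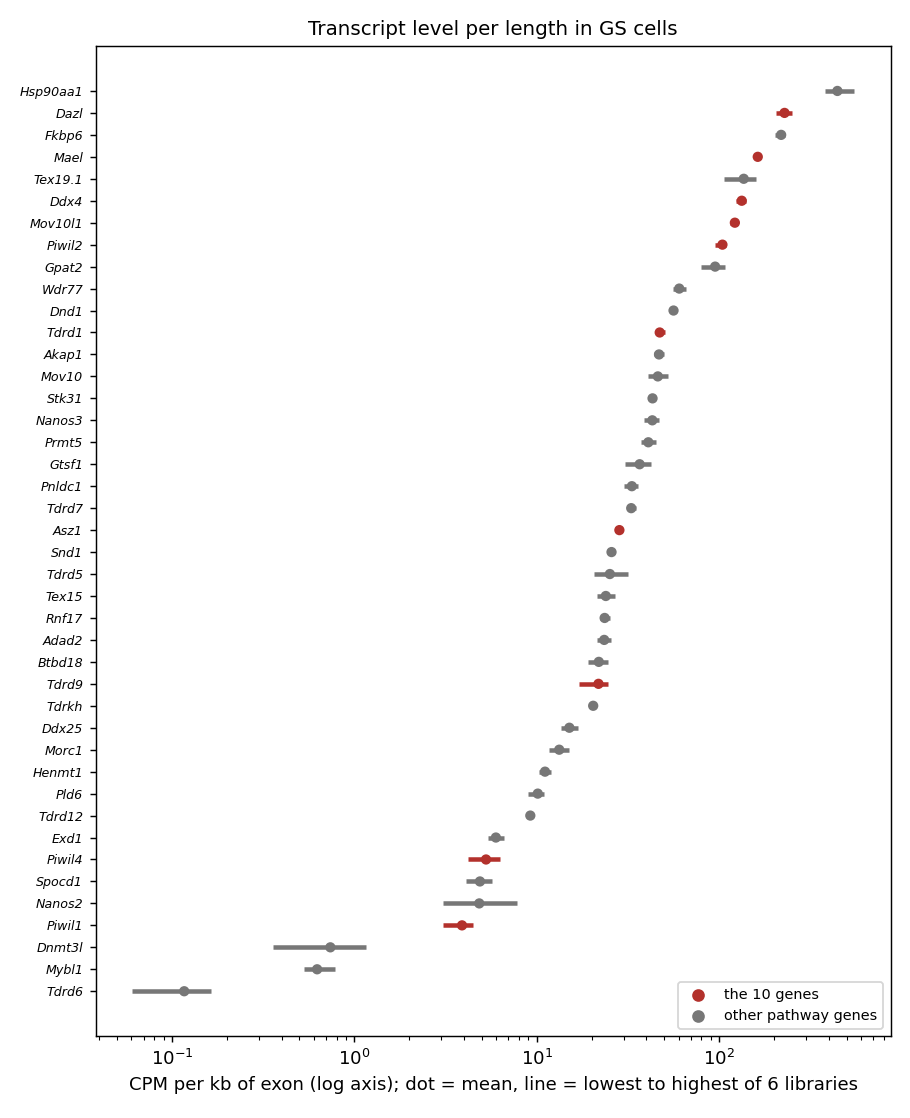
Transcript level per length of the 10 genes (red) and of the 32 tested genes of the wider pathway list (grey), in CPM per kb of exon on a log axis. Dots are means and lines run from the lowest to the highest of 6 libraries. Dazl is the highest of the 10 at 228.5 and Piwil1 the lowest at 3.90.

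The PIWI genes were thus far apart in level. Piwil2, which encodes MILI, exceeded Piwil4, which encodes MIWI2, by 17.2 to 23.2 times per kb within a library. Group means of that ratio were 19.5 ± 2.12 for Ground and 20.7 ± 2.99 for Space (SD, n = 3). Piwil2 exceeded Piwil1, which encodes MIWI, by 24.4 to 31.8 times, with means of 26.8 ± 2.42 and 27.4 ± 3.86. Piwil4 was 1.13 to 1.503 times Piwil1 within a library. These ratios depend on the length taken for Piwil4. With the longest annotated transcript of each gene in place of all its exons, an alternative added after seeing the data, Piwil2 exceeded Piwil4 by 11.3 to 15.3 times and Piwil1 by 24.2 to 31.5 times, and Piwil4 was 1.702 to 2.26 times Piwil1.

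To ask whether storage on the ISS changed expression of these genes, Space was compared with Ground by edgeR's quasi-likelihood test over all 15104 genes past the filter. None of the 10 genes passed the threshold of 0.05 after Benjamini-Hochberg adjustment, each with an adjusted p of 0.9999, and the share of all genes called was 0%. Before adjustment 0 of the 10 had a p under 0.05, against 0.609% of all genes. DESeq2 and limma-voom likewise called 0. With a block of crossed library pairs, which were paired by their values and not by their labels, 0 of the 10 were called, against 0.252% of all genes. Pairing by likeness in the same counts makes the p-values of that block too small, so its calls are only a description. The 3 libraries of one group did not lie apart from the 3 of the other in any of the 10, against 3.59% of all genes. Log2 fold changes lay between -0.048 (Piwil4) and 0.070 (Tdrd9), with 5 above and 5 below 0 and a median of -0.0016, beside -0.0020 over all genes tested. The 95% intervals of the Space to Ground ratio ran from 0.905 to 1.084 at their narrowest (Asz1) and from 0.757 to 1.33 at their widest (Piwil1), and the outermost bounds were 0.731 (Piwil4) and 1.35 (Tdrd9). These bounds belong to the test without a block.

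**Figure D2:**
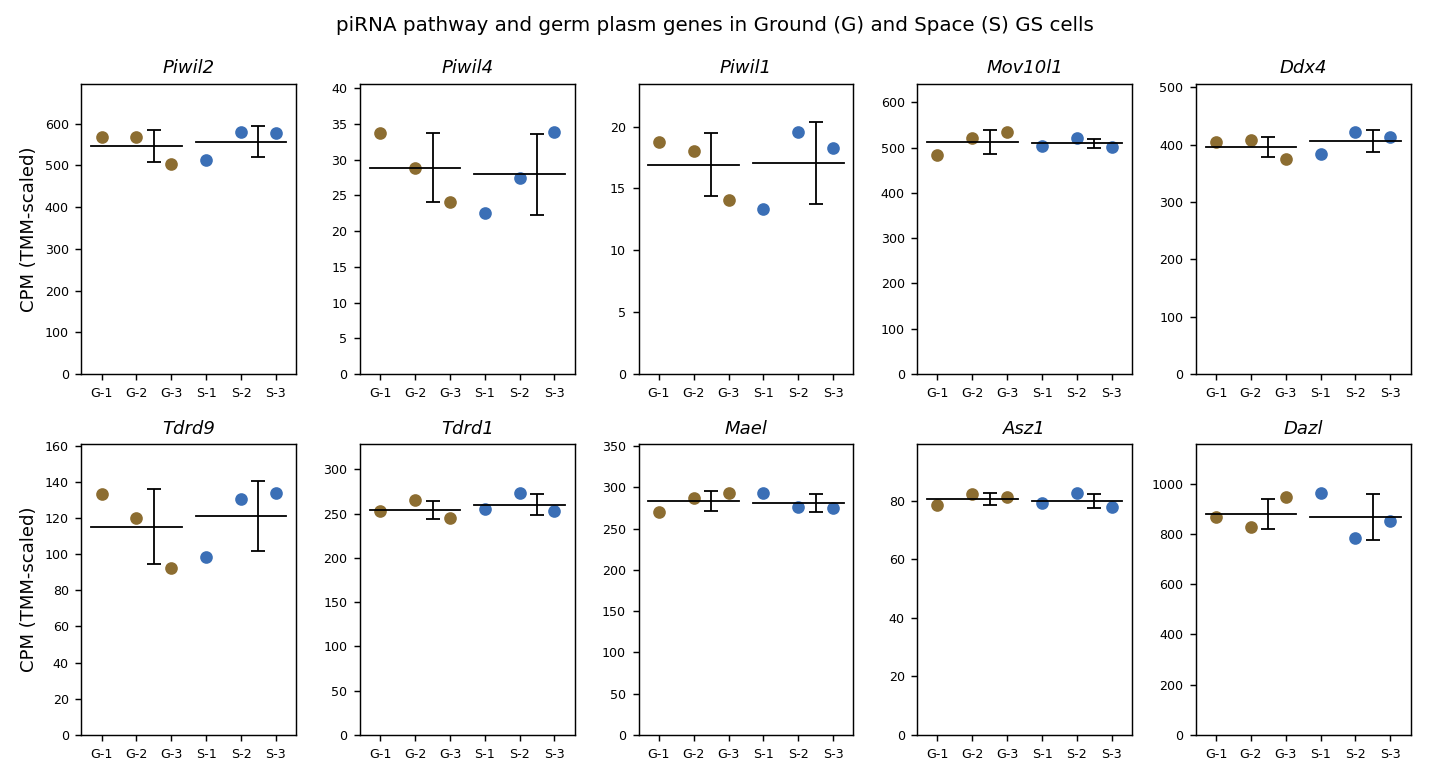
CPM after TMM of each of the 10 genes in the 3 Ground (G, brown) and 3 Space (S, blue) libraries, each axis starting at 0. Horizontal lines are group means and bars the SD. The libraries of the groups overlap for every gene.

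Positions are on GRCm38, and in the values that follow libraries stand in the order of their numbers, 1 to 3, within each group. Among the PIWI genes, Piwil2, on chromosome 14 (70372477 to 70429383, minus strand, ENSMUSG00000033644), had 568.2, 568.3 and 503.3 CPM across the Ground libraries. It had 513.0, 579.8 and 577.5 across the Space libraries. Ground-3 and Space-1 were the lowest, one in each group, and the other 4 libraries were alike. Between groups the log2 fold change was 0.027 (SE 0.076).

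Piwil4, on chromosome 9 (14696230 to 14740733, minus strand, ENSMUSG00000036912), had 33.7, 28.9 and 24.1 CPM across the Ground libraries. It had 22.6, 27.4 and 33.9 across the Space libraries. Ground-1 and Space-3 were the highest and Ground-3 and Space-1 the lowest, so that each group covered nearly the same span. Space differed from Ground by a log2 fold change of -0.048 (SE 0.17). Its exons share 137 bases with Gm10706, an antisense gene that had 0 counts in each library.

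Piwil1, on chromosome 5 (128702524 to 128755474, plus strand, ENSMUSG00000029423), had 18.8, 18.0 and 14.0 CPM across the Ground libraries. It had 13.3, 19.6 and 18.2 across the Space libraries. Again Ground-3 and Space-1 were the lowest. The groups differed by a log2 fold change of 0.0068 (SE 0.18), on 320 to 456 counts per library.

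The RNA helicases behaved unequally. Mov10l1, which binds piRNA precursors, lies on chromosome 15 (88982909 to 89055152, plus strand, ENSMUSG00000015365) and had 482.8, 520.3 and 534.1 CPM across the Ground libraries. It had 504.1, 520.5 and 502.0 across the Space libraries. No pair of libraries stood apart, and all Space values lay inside the Ground range. Its log2 fold change was -0.010 (SE 0.058).

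Ddx4, the mouse vasa homologue and a marker of the germ line, lies on chromosome 13 (112598333 to 112652475, minus strand, ENSMUSG00000021758). It had 404.3, 408.8 and 375.6 CPM across the Ground libraries and 384.1, 422.0 and 412.7 across the Space libraries. Ground-3 and Space-1 were the lowest, by a small margin. Its log2 fold change was 0.036 (SE 0.062).

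Tdrd9, a helicase with a Tudor domain that works with PIWIL4, lies on chromosome 12 (111971559 to 112068854, plus strand, ENSMUSG00000054003). It had 133.2, 120.2 and 92.4 CPM across the Ground libraries and 98.5, 130.8 and 133.9 across the Space libraries. Ground-3 and Space-1 lay clearly below the other 4 libraries. The log2 fold change of 0.070 (SE 0.16) was the largest of the 10 in size and smaller than its standard error.

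Tdrd1, Mael and Asz1 varied little. Tdrd1, a Tudor protein that docks PIWIL2, lies on chromosome 19 (56826209 to 56870012, plus strand, ENSMUSG00000025081). It had 252.7, 265.5 and 245.2 CPM across the Ground libraries and 254.7, 273.5 and 252.4 across the Space libraries, with a log2 fold change of 0.032 (SE 0.059). Ground-2 and Space-2 were the highest.

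Mael, a nuage protein needed for transposon silencing, lies on chromosome 1 (166201201 to 166238747, minus strand, ENSMUSG00000040629). It had 270.3, 287.7 and 292.7 CPM across the Ground libraries and 293.5, 275.9 and 274.6 across the Space libraries, with a log2 fold change of -0.011 (SE 0.058). Ground-3 and Space-1 were here the highest.

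Asz1, the mitochondrial anchor of the machinery, lies on chromosome 6 (18050964 to 18109061, minus strand, ENSMUSG00000010796). It had 78.5, 82.4 and 81.4 CPM across the Ground libraries and 79.3, 82.8 and 78.0 across the Space libraries. Its highest library was 1.061 times its lowest, and the coefficient of variation of 2.56% was close to the 2.36% that counting alone gives. The log2 fold change was -0.014 (SE 0.056).

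Dazl, on chromosome 17 (50279395 to 50293636, minus strand, ENSMUSG00000010592), had 865.4, 827.7 and 946.6 CPM across the Ground libraries. It had 963.6, 782.1 and 852.0 across the Space libraries. Ground-3 and Space-1 were the highest and Ground-2 and Space-2 the lowest. Its log2 fold change was -0.023 (SE 0.090).

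The spread among libraries differed between the genes. Piwil4, Piwil1 and Tdrd9 varied most, with a highest library 1.501, 1.47 and 1.45 times the lowest. Their coefficients of variation of 16.7, 15.5 and 15.5% compare with 3.96, 5.15 and 1.95% from counting alone and a median of 10.6% over all genes tested. Dazl followed with a ratio of 1.23, Piwil2 with 1.15 and Ddx4 with 1.12. Tdrd1, Mov10l1, Mael and Asz1 had ratios of 1.061 to 1.12, and their coefficients of variation lay at or below the 10.8 percentile of the tested genes. Counting alone gives 1.32% for Tdrd1, 0.938% for Mov10l1 and 1.26% for Mael, against the 3.99, 3.54 and 3.57% measured, so that of the 10 genes Asz1 was the one whose spread was near counting error. The median ratio was 1.14 over the 10 genes and 1.31 over all genes tested. These comparisons with all genes are not matched for level, and 5 of the 10 genes lay at the 98.0 to 99.4 percentile of level per kb.

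**Figure D3:**
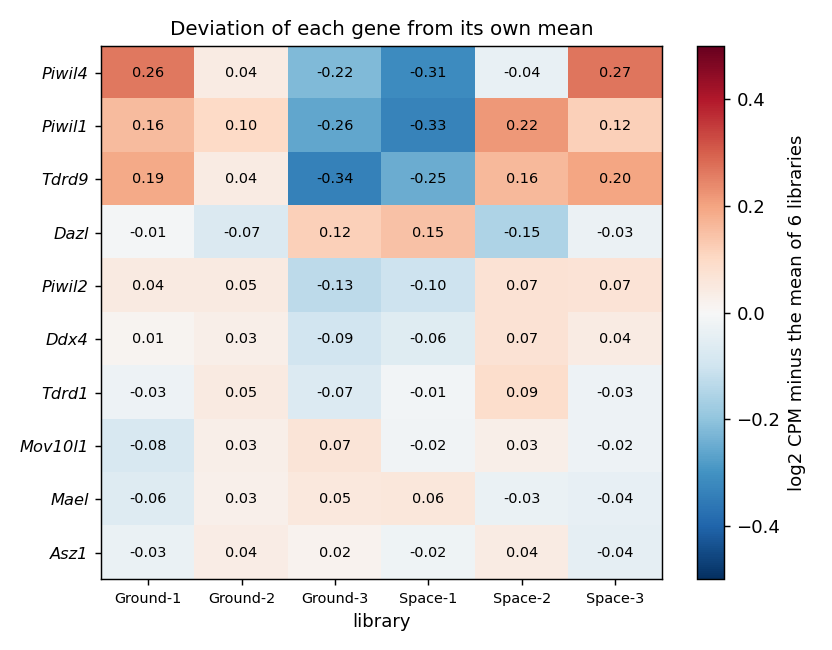
Log2 CPM of each gene minus its mean over 6 libraries, with genes ordered by the ratio of the highest to the lowest library. Ground-3 and Space-1 are blue (below the mean) for Piwil4, Piwil1 and Tdrd9, at -0.22 to -0.34, and red for Dazl at 0.12 and 0.15.

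Ground-3 and Space-1, which carry different labels, were the lowest pair of libraries in 5 of the 10 genes (Piwil2, Piwil4, Piwil1, Ddx4 and Tdrd9) and the highest pair in Dazl and Mael. Over all genes tested they were the lowest pair in 23.5% and the highest pair in 23.5%. These libraries were picked out after the values were seen, so the counts are a description. Of the 12 markers of undifferentiated spermatogonia they were the lowest pair in 3 and the highest pair in 3. Low in them were Bcl6b, a GDNF-regulated gene of stem cell self-renewal (59.1 and 57.6 CPM, against 217.6 to 371.3 in the others), the ETS factor gene Etv5 (93.0 and 99.1, against 194.7 to 261.8) and the GDNF co-receptor gene Gfra1 (100.4 and 101.3, against 141.1 to 148.6). High in them were Nanos2, Sall4 and Foxo1. They were the lowest pair in 7 of the 21 feeder markers and the highest in 0. The summed feeder level did not set both apart: it was 1143 CPM in Ground-3 and 894.6 in Space-1, against 1021 to 1160 in the others. The mitochondrial shares of Ground-3 and Space-1 were 5.69 and 2.51%, against 2.81 to 11.5% in the others. Their totals of 23218122 and 24110916 counts lay within or just above the range of the others. The part of the culture state or of feeder RNA in this pattern was not tested, and fewer cells of a type cannot be told apart from less RNA per cell in bulk libraries.

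The genes whose pattern was most like that of the 2 most variable members were sought among 10851 genes of at least 5 CPM, by Pearson's r of log2 CPM over the 6 libraries. For Piwil4 they were Lrp10 (r = 0.999), Actn2 (0.997) and Lacc1 (0.997). For Piwil1 they were Zfp597 (0.997), Ccdc57 (0.997) and Wwtr1 (0.996). With so few libraries high values were common, and 450 genes exceeded 0.95 for Piwil4 and 267 for Piwil1.

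The wider pathway list held 33 further genes of piRNA biogenesis, silencing and germ granules, of which 32 were tested. In the test without a block none passed the threshold and 0 had an unadjusted edgeR p under 0.05, and DESeq2 and limma-voom called 0. The median log2 fold change was 0.00066, with 16 genes above and 16 below 0. The libraries of the groups did not overlap in 1 of the 32 genes, about the share over all genes tested (3.59%). That gene was Tdrkh, a mitochondrial Tudor partner of PIWI proteins named here after its values were seen, with 123.0, 122.9 and 125.08 CPM in Ground and 128.4, 127.7 and 125.14 in Space. The gap between Ground-3 and Space-3 lay far below the counting error of Tdrkh, 1.89%. Its log2 fold change was 0.039 (SE 0.049), and its exons overlap those of Oaz3 on the opposite strand over 2255 bases.

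The highest log2 fold changes of the list were those of Exd1, a partner of the Tdrd12 protein (0.11, SE 0.092), Nanos2 (0.081, SE 0.41), Tdrd6 (0.066, SE 0.43) and Tdrd12 (0.060, SE 0.068). The lowest were those of Dnmt3l, the cofactor of de novo DNA methylation (-0.54, SE 0.46), Pld6, the mitochondrial nuclease that forms piRNA 5′ ends (-0.11, SE 0.10), Adad2 (-0.090, SE 0.075) and Spocd1, a nuclear partner of PIWIL4 (-0.065, SE 0.17). Each had an edgeR adjusted p of 0.9999.

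**Figure D4:**
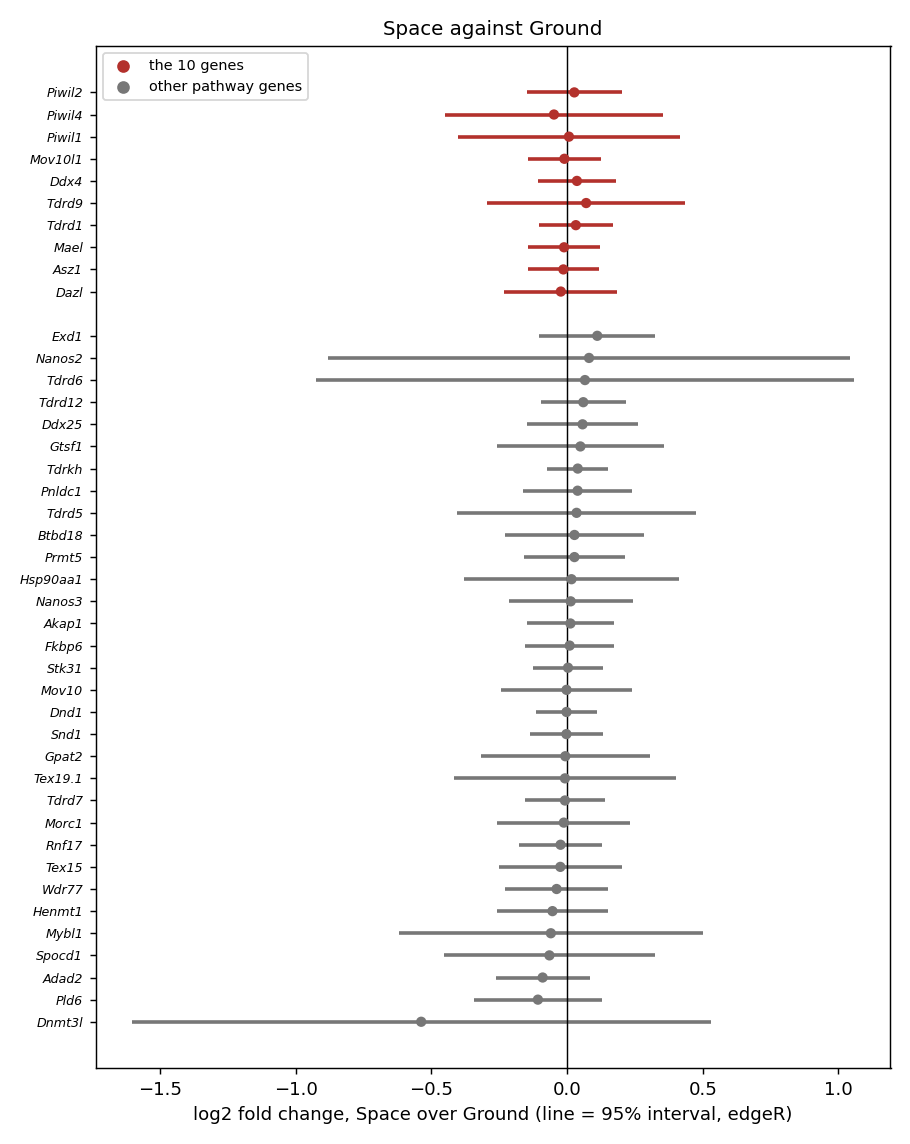
Log2 fold change of Space over Ground for the 10 genes (red, in order of role) and the 32 tested genes of the wider list (grey, in order of size), with 95% intervals from edgeR. The intervals are from the test without a block. Every one spans 0, and the widest is that of Dnmt3l, which had 1.07 to 3.46 CPM.

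By level per kb the wider list ran from the chaperone gene Hsp90aa1 (445.4), Fkbp6 (219.0), Tex19.1 (136.5) and Gpat2 (95.2) down to Tdrd6 (0.117), the lowest of the 32 tested genes. Fkbp6 encodes a co-chaperone of PIWIL2 and PIWIL4, and Gpat2 a mitochondrial protein that binds PIWIL2. Mybl1, which encodes the A-MYB factor that switches on the pathway genes in spermatocytes, had 2.88 to 4.25 CPM, or 0.626 per kb. Dnmt3c, a rodent methyltransferase that acts on young transposons in fetal germ cells, had 3, 0 and 0 counts in Ground and 2, 1 and 0 in Space. It was not tested.

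Between libraries the widest ranges of the list were those of Dnmt3l, Tdrd6, Nanos2 and Tdrd5. Nanos2, a repressor of differentiation, had 4.78, 5.16 and 12.1 CPM across the Ground libraries and 11.4, 6.39 and 5.60 across the Space libraries. Its exons overlap those of the antisense gene Gm45058 over 766 bases, and whether the counting used strand is not given in the sources used here. Tdrd5, a Tudor protein of the nuage, had 144.9, 156.9 and 216.1 CPM in Ground and 220.8, 166.3 and 143.5 in Space. Dnmt3l had 3.46, 3.14 and 1.27 CPM in Ground and 1.07, 1.60 and 2.72 in Space. It rested on few counts, 84, 59 and 29 in Ground and 26, 30 and 68 in Space, so that Ground-3 and Space-2 had nearly equal counts. Tdrd6 had only 8 to 29 counts per library. Nanos2 and Tdrd5 were thus highest, and Dnmt3l lowest, in Ground-3 and Space-1. These were the lowest pair in 12 of the 32 genes and the highest pair in 9, among the latter Hsp90aa1 with 2123 and 2169 CPM against 1496 to 1616 in the others.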

How the data were processed

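The deposited table holds raw counts per gene for 6 mRNA libraries, with nothing pooled and 0 columns of other samples. To make it, the authors trimmed the reads with cutadapt and mapped them to mm10 by HISAT2 2.2.1 with GENCODE M21. HTSeq 2.0.2 is named in the submitters' processing notes. Whether counting used strand is not given in the sources used here, and labels and methods name different mRNA kits, both stranded.

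From the counts, genes were kept by filterByExpr, libraries were scaled by TMM and the quasi-likelihood F test of edgeR 4.0.16 (R 4.3.3, 2-sided) was run, with Benjamini-Hochberg adjustment over 15104 genes and a threshold of 0.05. The SE is the size of the log2 fold change divided by the square root of F. Intervals (95%) use the moderated degrees of freedom, and log2 CPM a prior count of 2. Positions and exon lengths are from GENCODE M21 (GRCm38), counted from 1. At 19015985 to 24110916 counts per library, counting error was 0.714 to 5.15% for the 10 genes.

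The genes and lists were chosen with earlier results of these data known. Of the wider list, the rule named genes with an unadjusted p under 0.05, the 4 highest and 4 lowest fold changes, the 4 highest levels, the 4 widest ranges and those not tested. Tdrkh and Mybl1 are named outside it, after their values were seen. Of each marker list the highest and lowest by mean CPM and a few preset genes are named. Bcl6b, Etv5, Sall4, Foxo1, Id4 and Cdh1 are named outside the rule. Alternatives covered scaling (RLE, total counts), filtering (none, or at least 10 counts in every library), the tool (DESeq2 1.42.0, or voom in limma 3.58.1), blocks, mitochondrial genes and each library. The procedures were also run on simulated counts, drawn independently for each library. These lack the likeness of library pairs seen in the data, so no conclusion is drawn from them here.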

Additional observations from a re-analysis of the deposited data

How the results depend on the processing

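The number of the 10 genes called between Space and Ground was 0 in the main test and in all 15 alternatives, and so was the number of the 32 wider pathway genes. The number of all genes called was 0 in 14 alternatives and 38 with a replicate block of crossed pairs. With replicate numbers as replicate block 0 genes were called. By their values, same-numbered libraries were not alike for numbers 1 and 3, where deviations from the group means correlated at -0.54 and -0.61. Those of number 2 correlated at 0.33, and each was the best match of the other. Whether the numbers in the titles mark a shared line is not given in the labels. The crossed pairs (Ground-1 and Space-3, the number 2 of each group, Ground-3 and Space-1) come from the values alone, and the block takes out the variation they share. Within it Tdrd9 had the smallest unadjusted p of the 10 genes, 0.0363 (edgeR adjusted p = 0.636, log2 fold change 0.070). In this block 1097 of the 15104 genes tested had an unadjusted edgeR p under 0.05. Among them were 1 of the 10 genes, Tdrd9, and 2 of the 32 wider pathway genes, Dnmt3l and Exd1. As the pairs were chosen by likeness in the same counts, these numbers are only a description.

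Signs near 0 reversed, none past the threshold. Total counts, which put the median of all genes at 0.033, gave 0.012 for Dazl, 0.025 for Mael, 0.027 for Mov10l1 and 0.022 for Asz1. Piwil1 was -0.011 with limma-voom and -0.00039 with crossed pairs as replicate block. Without one library the log2 fold changes ranged from -0.11 to 0.16 for Piwil1, -0.21 to 0.085 for Piwil4, -0.025 to 0.082 for Piwil2, -0.062 to 0.20 for Tdrd9, -0.0046 to 0.064 for Tdrd1, -0.045 to 0.018 for Mael, -0.051 to 0.026 for Mov10l1, -0.038 to 0.0048 for Asz1 and -0.11 to 0.045 for Dazl. Ddx4 stayed above 0 in all 15 alternatives (0.0041 to 0.075).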
